A study of Homo sapiens with 18 samples.

Results

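The genes described here take up, store, export and sense iron in HCT116 cells, a human colorectal carcinoma line with epithelial character. They were chosen by symbol, as a list of 10 genes: TFRC, STEAP3 and SLC11A2 (uptake), FTH1, FTL and NCOA4 (storage and its release), SLC40A1 (export), and ACO1, IREB2 and FBXL5 (sensing). The whole transcriptome table pairs 9 of the 10 symbols with a row among its 38055 genes. No row is paired with NCOA4, the receptor that carries ferritin to autophagy, so it was not analysed here. Wild-type (WT) HCT116 cells were grown in McCoy's 5A medium with serum and harvested on day 3, at 50% confluency, or on day 5, at 250% confluency, when more cells were present than a single layer can hold. Each day has 3 libraries of ribosome-depleted whole cell RNA, labelled as biological replicates, and the question was how the RNA of these genes differs between sparse and overcrowded cells. All libraries come from a single cell line with no treatment, and days in culture and density change together, so they cannot be told apart here.

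Iron bound to transferrin enters cells through the transferrin receptor, encoded by TFRC. In the endosome STEAP3 reduces it and SLC11A2, the divalent metal transporter, moves it to the cytosol. Surplus iron is stored in ferritin, a shell of heavy (FTH1) and light (FTL) chains, or leaves the cell through ferroportin (SLC40A1). Iron is sensed by the RNA-binding proteins IRP1 and IRP2, encoded by ACO1 and IREB2. When iron is scarce they bind iron responsive elements, which are short RNA hairpins. Binding in a 3′UTR protects TFRC RNA from decay, and binding in a 5′UTR blocks translation of ferritin and ferroportin RNA. FBXL5 is the iron-sensing subunit of a ubiquitin ligase that marks IRP2 for destruction. RNA levels were measured here, and neither translation nor iron itself.

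The iron responsive elements are shown because they are what the sensors in this gene set bind. They were searched in GENCODE protein-coding transcripts of the 10 genes (GRCh38) on the transcript strand alone, as an unpaired C, 5 bases, the loop CAGTGN and 5 bases that pair with the first 5, with G-T pairs allowed. This pattern occurred in 4 of the 10 genes: 4 times in the 3′UTR of TFRC and once each in the 5′UTR of FTL, SLC40A1 and FTH1. Each position was recorded from the first transcript found to hold it, which for FTH1 was not the canonical one. Whether the canonical FTH1 transcript also holds the match was not recorded. Elements with an imperfect stem would be missed. Of 19701 canonical protein-coding transcripts, 0.096% had a match in the 5′UTR and 0.614% in the 3′UTR. In the wider pathway list described further on, ALAS2 had a match in the 5′UTR and TF in the 3′UTR. The TFRC and SLC40A1 genes are on the minus strand and FTL is on the plus strand. Each sequence below has 30 bases, is written 5′ to 3′ as DNA, and has the 6 loop bases in capitals.
TFRC element 1, chr3:196050978-196051007: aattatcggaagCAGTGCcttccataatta
TFRC element 2, chr3:196050574-196050603: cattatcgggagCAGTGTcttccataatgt
TFRC element 3, chr3:196050509-196050538: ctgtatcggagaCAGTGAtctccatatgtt
TFRC element 4, chr3:196050462-196050491: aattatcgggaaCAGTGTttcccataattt
FTL, chr19:48965335-48965364: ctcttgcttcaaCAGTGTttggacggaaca
SLC40A1, chr2:189580660-189580689: caacttcagctaCAGTGTtagctaagtttg

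The libraries held between 27470978 and 56689369 reads on genes, and day 3 had both the deepest and the shallowest of them. Values are the authors' normalized reads per gene and library, in which 1 read is worth 0.618 to 1.42 units. Day 3 replicate 3, the shallowest library, gave the highest day 3 value for 7 of the 9 genes, and results that turn on it are given without it. Of 9 epithelial and colon markers, EPCAM lay between 6932 and 7403 in every library, while VIL1, LGALS4 and CDX1, which mark differentiated colon epithelium, were near 0 on both days. Mean values went from 19250 to 39070 for KRT8, from 9861 to 18502 for KRT18 and from 8215 to 31867 for KRT19. CDH1 went from 637 to 3940 and CDX2 from 226 to 306. The summed value of the 9, most of it keratin, was 37120 to 55191 on day 3 and 100347 to 101443 on day 5. The 5 blood and erythroid markers summed to 14.2 to 21.6 in all libraries. The 2 measured endothelial markers summed to 8.51 to 21.0 on day 3 and 20.7 to 39.7 on day 5, nearly all of it VWF. The 4 measured fibroblast markers summed to 513 to 594 on day 3 and 1114 to 1181 on day 5, nearly all of it COL1A1. The part of these shifts in the results below was not tested.

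Ferritin RNA stood at the top of the set on both days. Levels between genes were compared per kilobase of the canonical transcript, on the scale of the normalized values. On day 3 FTL stood at 42421 ± 9211 (SD, n = 3), FTH1 at 21071 ± 3396 and TFRC at 6683 ± 421 per kilobase. IREB2 followed at 921 ± 41.3, FBXL5 at 591 ± 10.5, SLC11A2 at 538 ± 16.4, ACO1 at 261 ± 31.3, STEAP3 at 218 ± 11.95 and SLC40A1 at 23.9 ± 4.16. Neighbours in that order did not overlap between their 3 libraries, except ACO1 and STEAP3, which did. On day 5 the first 4 and the last places were the same, with FTL at 35159 ± 83.4, FTH1 at 23385 ± 912 and TFRC at 3459 ± 718 per kilobase. FBXL5 went from place 5 to place 8, at 365 ± 17.8 per kilobase, next to STEAP3 at 369 ± 12.8. On that day SLC11A2 overlapped with ACO1, and STEAP3 with FBXL5.

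**Figure D1:**
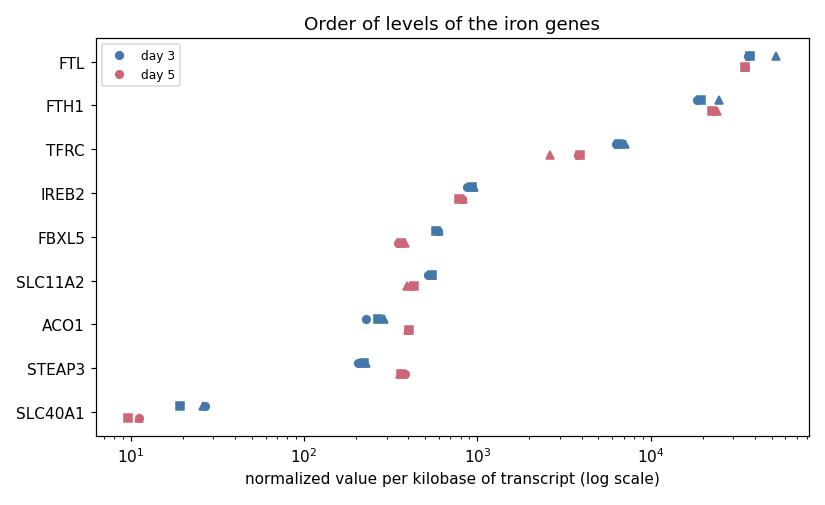
Normalized value per kilobase of canonical transcript on a log axis for the 9 genes, 1 point per library (circle, square and triangle for replicates 1, 2 and 3; blue for day 3, red for day 5). The ferritin genes lie at the top, at 18654 or more in every library, and SLC40A1 lies at the bottom, at 26.6 or less.

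TFRC RNA was lower in the overcrowded cells. TFRC (ENSG00000072274, chromosome 3 of GRCh38 from 196012511 to 196082153) had normalized values of 31718, 32941 and 35825 on day 3, and of 19150.0, 19667 and 13190.0 on day 5. The groups did not overlap, and day 5 replicate 3 was the lowest library by far. The mean on day 5 was 0.518 times that of day 3, and the log2 fold change was -0.97 (95% interval -1.25 to -0.69, limma with Benjamini-Hochberg adjustment, adjusted p = 1.1e-05). Without day 5 replicate 3 the log2 fold change was -0.79, and it still passed. Of the 20129 genes tested, 8.75% had a lower log2 fold change.

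STEAP3, the endosomal ferrireductase, moved the other way. STEAP3 (ENSG00000115107, chromosome 2 from 119223831 to 119265652) had values of 874, 939 and 974 on day 3 and of 1634, 1549.8 and 1533 on day 5. Every day 5 library lay above every day 3 library. On average the RNA was 1.69-fold as abundant on day 5, with a log2 fold change of 0.76 (95% interval 0.59 to 0.93, limma, adjusted p = 7.74e-07). This was the largest rise in the set.

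SLC11A2 fell by a smaller amount than TFRC. SLC11A2 (ENSG00000110911, chromosome 12 from 50979401 to 51028566) had values of 2148, 2276 and 2248 on day 3 and of 1718, 1783 and 1620.5 on day 5. All day 5 values were under all day 3 values. The day 5 mean was 0.768 times that of day 3, and the log2 fold change was -0.38 (95% interval -0.54 to -0.23, limma, adjusted p = 0.000363). The uptake genes therefore changed in both directions, with the receptor and the transporter lower and the reductase higher. The values sum all isoforms of a gene, so those of SLC11A2 with and without an iron responsive element cannot be told apart.

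**Figure D2:**
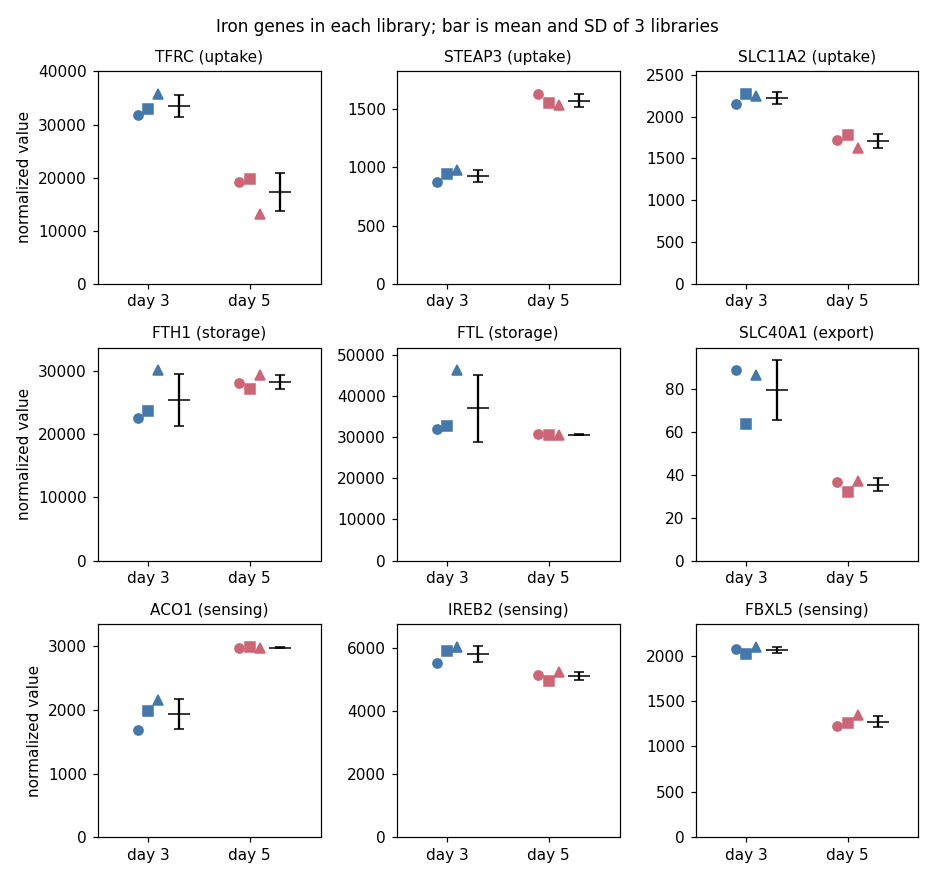
Normalized values of the 9 genes (linear axes from 0), 1 point per library (circle, square and triangle for replicates 1, 2 and 3) with the mean and SD of the 3 libraries of each day at the side. TFRC, SLC11A2, FTL, SLC40A1, IREB2 and FBXL5 are lower on day 5 in every library, STEAP3 and ACO1 are higher in every library, and FTH1 overlaps between the days.

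The ferritin genes changed little beside TFRC, and neither passed the test. FTH1 (ENSG00000167996, chromosome 11 from 61959718 to 61967634) had values of 22440.3, 23586 and 30019 on day 3 and of 28072, 27067 and 29259 on day 5. Day 3 replicate 3 was above all day 5 libraries and the other day 3 libraries were below them, so the groups overlapped. The log2 fold change was 0.16 (95% interval -0.07 to 0.39, limma, adjusted p = 0.209). Without day 3 replicate 3 it was 0.29 and passed (limma, adjusted p = 0.00072), and it passed as well at 0.23 with each library divided by its total (limma, adjusted p = 0.0133).

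FTL (ENSG00000087086, chromosome 19 from 48965309 to 48966879) had values of 31891, 32755 and 46199 on day 3 and of 30704, 30563 and 30603 on day 5. The day 5 libraries lay within a narrow band just under the lowest day 3 library, and day 3 replicate 3 stood far above the rest. The log2 fold change was -0.25 (95% interval -0.51 to 0.01, limma, adjusted p = 0.0957). It passed with edgeR on the recovered reads (-0.28, adjusted p = 0.0281), with DESeq2 (-0.27, adjusted p = 0.0425) and without day 3 replicate 1 (-0.35, limma, adjusted p = 0.0153). Without day 3 replicate 3 it was -0.08 (limma, adjusted p = 0.352).

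Both ferritin transcripts are short, at 1203 bases for FTH1 and 871 for FTL, and the difference between the days moved with transcript length. Over all tested genes with transcripts under 1500 bases the median log2 fold change was -0.29, and over those above 4000 bases it was 0.24. With a correction for length in each library, chosen after seeing the data, the log2 fold change of FTH1 was 0.31 (limma, adjusted p = 0.00591) and that of FTL was 0.01 (limma, adjusted p = 0.931). The ferritin genes also have processed pseudogenes of near-identical sequence, to which reads could be assigned. The 21 listed FTH1 pseudogenes held 5.75% to 6.61% of the summed FTH1 value, and the 11 listed FTL pseudogenes 1.23% to 1.46% of that of FTL. Summing gene and pseudogenes gave log2 fold changes of 0.15 and -0.25, with neither past the threshold.

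Ferroportin RNA was scarce and lower still on day 5. SLC40A1 (ENSG00000138449, chromosome 2 from 189560590 to 189583758) had values of 88.7, 63.7 and 86.5 on day 3 and of 36.9, 32.2 and 37.3 on day 5. These rest on 101, 103 and 61 reads and on 34, 30 and 36 reads. No day 5 library reached the lowest of day 3. The day 5 mean was 0.445 times that of day 3, and the log2 fold change was -1.13 (95% interval -1.58 to -0.69, limma, adjusted p = 0.000237), the largest fall in the set and the least precise. In RNA from whole cultures, fewer cells that express a gene and less RNA per cell cannot be told apart.

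The sensor genes parted. ACO1 encodes IRP1, which is cytosolic aconitase when it holds an iron-sulfur cluster. ACO1 (ENSG00000122729, chromosome 9 from 32384603 to 32454769) had values of 1694, 1979 and 2155 on day 3 and of 2976, 2988 and 2971 on day 5. All day 5 libraries lay above day 3 and within a narrow range of each other. On average the RNA was 1.53-fold as abundant on day 5, and the log2 fold change was 0.62 (95% interval 0.44 to 0.81, limma, adjusted p = 1.72e-05). The ACO1 transcript is long, at 7443 bases, and with the length correction the log2 fold change was 0.33 (limma, adjusted p = 0.00163).

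IREB2, which encodes IRP2, was slightly lower. IREB2 (ENSG00000136381, chromosome 15 from 78437431 to 78501453) had values of 5529.5, 5910.3 and 6029 on day 3 and of 5145, 4963 and 5244 on day 5. The groups lay close together without overlap. The log2 fold change was -0.19 (95% interval -0.34 to -0.03, limma, adjusted p = 0.0362). This call was lost on library totals (limma, adjusted p = 0.111), when scarce genes were kept in the fit (limma, adjusted p = 0.0716), and without day 3 replicate 2 or day 5 replicate 1, 2 or 3 (limma, adjusted p = 0.112, 0.0892, 0.145 and 0.0599). With the length correction its log2 fold change was -0.45 (limma, adjusted p = 1.17e-05).

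FBXL5, the subunit that targets IRP2, was clearly lower. FBXL5 (ENSG00000118564, chromosome 4 from 15604381 to 15681679) had values of 2070.3, 2019.5 and 2091 on day 3 and of 1221, 1257 and 1342 on day 5. The spread within each day was small beside the gap between them. The day 5 mean was 0.618 times that of day 3, and the log2 fold change was -0.69 (95% interval -0.85 to -0.54, limma, adjusted p = 1.08e-06).

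In all, 7 of the 9 genes passed the threshold of 0.05 (limma with Benjamini-Hochberg adjustment over 20129 genes), 2 higher (STEAP3 and ACO1) and 5 lower (TFRC, SLC11A2, SLC40A1, IREB2 and FBXL5). Among all genes tested 59.9% passed, 31.1% higher and 28.7% lower, and among those with a mean value of at least 1000, 81.2% passed, so the share in the set, 77.8%, is near the background of genes that are well measured. The libraries of both days did not overlap for 8 of the 9 genes (2 higher, 6 lower), against 65.0% of all genes tested (33.4% higher, 31.7% lower). The median log2 fold change was -0.25 in the set and 0.01 over all genes tested. With edgeR on the recovered reads 8 passed, 2 higher and 6 lower, against 61.0% of all genes (31.0% higher). With DESeq2 the split was the same, against 44.9% (23.6% higher, 21.3% lower). On library totals 7 passed, 3 higher and 4 lower, against 59.6% (33.7% higher, 25.9% lower), and with the length correction 8 passed, 3 higher and 5 lower, against 60.0% (29.5% higher, 30.4% lower). With at least a 2-fold change besides the threshold 1 gene of the 9, SLC40A1, remained, against 3696 of all 20129 genes.

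**Figure D3:**
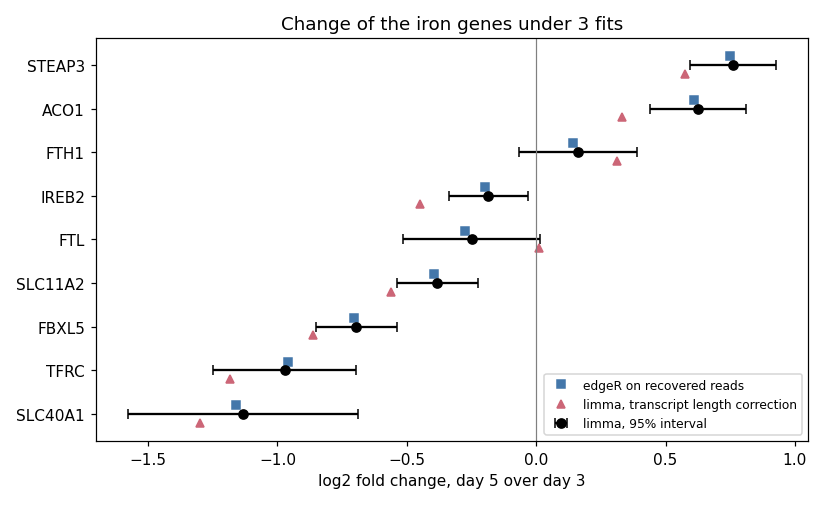
Log2 fold change of day 5 over day 3 for the 9 genes from limma with its 95% interval (black), from edgeR on the recovered reads (blue squares) and from limma after the transcript length correction (red triangles). Both alternatives lie on the same side of 0 as limma for every gene except FTL, where the length correction gives 0.01.

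A ratio between a pair of genes within a library is free of the scaling factor of that library. The ratio of TFRC to FTH1 sets uptake beside storage. It was 1.41, 1.40 and 1.19 on day 3 and 0.682, 0.727 and 0.451 on day 5, with no overlap. Its mean log2 value went from 0.41 ± 0.14 (SD, n = 3) to -0.72 ± 0.37, a difference of -1.13. The ratio of FTL to FTH1 was 1.42, 1.39 and 1.54 on day 3 and 1.09, 1.13 and 1.05 on day 5, so the light chain was lower relative to the heavy chain in every day 5 library. Its log2 difference was -0.41. Per kilobase of transcript, there were 2.00 ± 0.109 FTL for each FTH1 on day 3 and 1.505 ± 0.0577 on day 5 (SD, n = 3).

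The ratio of ACO1 to IREB2 was 0.306, 0.335 and 0.357 on day 3 and 0.578, 0.602 and 0.567 on day 5. Its log2 difference was 0.81, or 1.75-fold. IREB2 thus remained above ACO1 on both days, at 0.495 ± 0.0153 ACO1 for each IREB2 per kilobase on day 5 (SD, n = 3). Each of the 3 ratios gave p = 0.1 in a two-sided exact permutation test, also after Benjamini-Hochberg adjustment over the 3, and 0.1 is the smallest p that 3 libraries against 3 allow. The direction of all 3 remained without any single library, with log2 differences from -1.26 to -0.92, from -0.44 to -0.37 and from 0.75 to 0.86. No length correction was applied to the ratios.

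**Figure D4:**
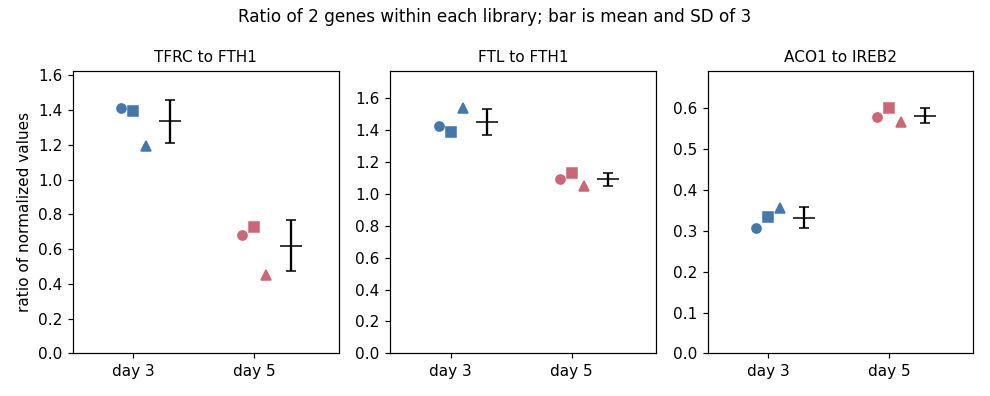
Ratios of normalized values within each library (linear axes from 0), 1 point per library with the mean and SD of 3 at the side. TFRC to FTH1 and FTL to FTH1 are lower in all day 5 libraries, and ACO1 to IREB2 is higher in all of them.

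The wider iron pathway was described from a list of 82 further genes in 6 groups. Of these, 80 could be read from the table (ALAS2 has no row paired with it and BOLA2 is on 2 rows) and 75 passed the filter on low values. On day 5, 20 were higher and 34 lower, and 21 did not pass (limma). That is 72.0% called against 59.9% of all genes tested, with a median log2 fold change of -0.13 against 0.01.

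Iron-sulfur cluster assembly was the group with most members lower. Of 23 tested genes 16 fell, 3 rose and 4 did not pass, with a median log2 fold change of -0.48. Among all genes tested 28.7% fell and 31.1% rose. BOLA3, an accessory factor of mitochondrial cluster transfer, fell most, from 1361 ± 272 (SD, n = 3) to 511 ± 15.1 (log2 fold change -1.39, limma, adjusted p = 9.72e-08). IBA57, which helps to make clusters of the larger type, rose from 384 ± 45.7 to 680 ± 33.0 (log2 fold change 0.83, limma, adjusted p = 5.29e-06). Median transcript length was 2021 bases in this group, and with the length correction 15 fell, 3 rose and the median was -0.51, where 30.4% of all genes fell and 29.5% rose.

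The iron chaperones were higher, and the genes that govern ferritin turnover were split. Of 6 tested genes 5 rose, namely all 4 PCBP genes and HERC2, and 1 fell, where 31.1% of all genes rose and 28.7% fell. PCBP4 overlapped between the days and did not pass without day 5 replicate 3 (limma, adjusted p = 0.0794). PCBP1, a chaperone that delivers iron to ferritin, rose from 3342 ± 706 (SD, n = 3) to 6159 ± 202 (log2 fold change 0.90, limma, adjusted p = 1e-05). TAX1BP1, an adaptor in autophagy of ferritin, fell from 4489 ± 112 to 3227 ± 183 (log2 fold change -0.48, limma, adjusted p = 4.12e-05).

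Among 7 tested partners of the sensors, 2 rose, 3 fell and 2 did not pass, a share called of 71.4% against 59.9% of all genes. The 3 that fell are the ligase subunits that work with FBXL5, namely SKP1, CUL1 and RBX1, with log2 fold changes of -0.56, -0.51 and -0.62. RBX1, the subunit that recruits the ubiquitin-conjugating enzyme, went from 847 ± 23.04 (SD, n = 3) to 552 ± 49.5 (limma, adjusted p = 2.55e-05). These subunits also serve many other ligases. EPAS1, which encodes the hypoxia factor HIF-2α, rose from 466 ± 77.2 to 1852 ± 125, the largest change among the 75 genes of the list that limma tested (log2 fold change 2.00, limma, adjusted p = 2.19e-09).

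Other iron transport genes were split. Of 15 tested, 3 rose, 5 fell and 7 did not pass, with a median log2 fold change of 0.00. The share called was 53.3%, near the 59.9% of all genes. TFR2, a second transferrin receptor, rose from 195 ± 9.39 (SD, n = 3) to 323 ± 39.8, against the fall of TFRC (log2 fold change 0.72, limma, adjusted p = 9.87e-05). It remained far less abundant than TFRC. STEAP1, a relative of STEAP3, fell from 1187 ± 41.1 to 500.0 ± 14.5 (log2 fold change -1.25, limma, adjusted p = 8.42e-09), so these relatives moved in opposite directions. With the length correction 2 transport genes rose and 5 fell.

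Heme genes were split as well, and 66.7% were called in each of the 2 heme groups, near the 59.9% of all genes. In heme synthesis 3 of 12 tested genes rose, 5 fell and 4 did not pass. CPOX, which carries out a late mitochondrial step, rose from 9482 ± 502 (SD, n = 3) to 15972 ± 749 (log2 fold change 0.75, limma, adjusted p = 9.32e-07), and TMEM14C, which serves porphyrin import into mitochondria, fell from 2435 ± 221 to 1263 ± 122 (log2 fold change -0.95, limma, adjusted p = 3.88e-07). In heme export and breakdown 4 of 12 rose, 4 fell and 4 did not pass. POR, the reductase that supplies heme oxygenase with electrons, rose by 1.05 on the log2 scale (limma, adjusted p = 6.61e-07), and ABCG2, an exporter that also carries porphyrins, fell by 1.17 on the log2 scale (limma, adjusted p = 2.68e-05).

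**Figure D5:**
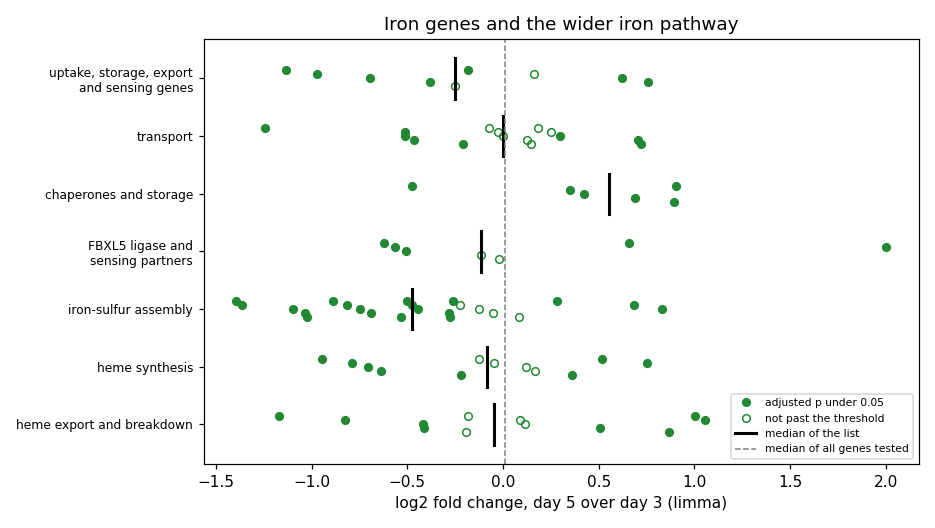
Log2 fold change of day 5 over day 3 (limma) for the 9 iron genes and the 6 groups of the wider list, 1 point per tested gene, filled where the adjusted p was under 0.05. Black bars mark each group's median and the dashed line the median of all genes tested. The iron-sulfur group has its median at -0.48 and the chaperone and storage group at 0.56.

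The genes with patterns most like those of the extremes of the set were found by distance over the 6 libraries, on log2 values centred on each gene's mean. For STEAP3 they were WDR6, PPIL2 and CSNK1D, at distances of 0.05, 0.05 and 0.05 and with log2 fold changes of 0.79, 0.75 and 0.77. For SLC40A1 they were RPL7P48, ABCG2 and CCNH, at 0.13, 0.18 and 0.21, with log2 fold changes of -1.09, -1.17 and -1.06. These are descriptions over 6 libraries of 2 days.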

How the data were processed

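Values came from the whole transcriptome table of day 3 and day 5, with 3 libraries per day. The small-RNA tables and day 7 were not used here. The authors trimmed the reads and mapped them strand-specifically to Ensembl release 99 genes of hg38 in CLC Genomics Workbench, with TMM named as the normalization. The libraries carried UMI adapters, and whether duplicates were collapsed is not given in the sources used here. The submitters' processing notes also name bcl2fastq, FastQC 0.11.8 and MultiQC 1.7. The deposited values are a normalized signal, and 100% were whole multiples of 1 read (within 0.05 of a read), so reads were recovered; their scale between libraries equals DESeq2 size factors. The table's own fold changes and p-values were not used. Symbols came from the table for 24974 genes and otherwise, by identifier, from GENCODE release 44 (10653 genes), which also gave loci and canonical transcript lengths.

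limma 3.58.1 (R 4.3.3, with an intensity trend) was fitted to log2(value + 1) of the 20129 genes that reached 10 in 3 or more of the 6 libraries, with Benjamini-Hochberg adjustment and a threshold of 0.05. Fold changes on this scale understate those of low genes. edgeR 4.0.16 and DESeq2 1.42.0 on recovered reads were alternatives, and a length correction (a lowess per library on log2 transcript length) was added after seeing the data. On simulated data the fit recovered 58 of 98 changes of 1.5-fold and 83 of 97 changes of 2-fold, with 9 false calls among 19763 genes. The simulation changed far fewer genes than passed here and its spread was set beforehand, so these shares need not hold for the real libraries. The labels name biological replicates without saying more, so p-values measure the spread between these libraries. The depth limits the precision of SLC40A1 most. The genes and lists were chosen with earlier results of these data known. Named beyond the set were, in each group of the wider list, the called gene with the largest rise and that with the largest fall, and the 3 nearest patterns of the extremes. SKP1 and CUL1 were named after their values were seen. Python 3.11.15, pandas 2.3.3, numpy 2.4.6, scipy 1.17.1 and matplotlib 3.10.9 were used.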

Additional observations from a re-analysis of the deposited data

How the results depend on the processing

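Across 119 recomputed values of the 9 iron genes, 105 kept their direction and side of the threshold, 13 changed side (those of FTH1, FTL and IREB2) and 1 reversed: FTL, at a log2 fold change of 0.012 with the transcript length correction, which was added after seeing the data and whose cause was not tested. All 156 recomputed values of the 12 named pathway genes kept both. Requiring a 2-fold change, which by construction leaves fewer genes, left 3696 of all genes against 12055, 1 of the iron genes against 7 and 10 of the wider list against 54. Leaving out single libraries gave 10724 to 12255 genes in all, 6 to 8 iron genes and 48 to 55 of the wider list. The replicate numbers did not pair the libraries: the deviations of same-numbered libraries correlated at -0.01, 0.03 and 0.02. With the replicate block 11865 genes, 6 iron genes and 53 of the wider list passed, IREB2 being lost (limma, adjusted p = 0.0528); for the ratios the exact test within numbers gave p = 0.25, the smallest that 3 pairs allow. No exact test of the ratios could pass 0.05, which says nothing of their stability. NCOA4 gave no value under any setting. Low counts limit SLC40A1, whose log2 fold change ranged from -1.28 to -1.05 without single libraries.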

Other observations

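Among the iron-sulfur genes, 4 others were lower by over 2-fold on day 5 (chosen after their values were seen). ISCU, the scaffold on which clusters are built, had values of 2922, 2842 and 3518 on day 3 and of 1441, 1362 and 1517 on day 5 (log2 fold change -1.10, limma, adjusted p = 6.82e-08). NFU1, a cluster carrier, fell by 1.04 on the log2 scale (limma, adjusted p = 3.66e-07). CISD1 and CISD2, which hold clusters in the outer mitochondrial and endoplasmic reticulum membranes, had changes of -1.37 and -1.02 on the log2 scale (adjusted p = 3.59e-09 and 7.02e-08 in limma). For all 4, every day 5 library was under every day 3 library, and each passed after the length correction. Over all genes tested, 31.7% were lower without overlap, and 60.0% passed after the length correction. A fall of at least 2-fold past the threshold was found for 1579 of the 20129 genes.

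HERC2, the ligase known to target NCOA4, rose from 4305 ± 220 (SD, n = 3) to 7981 ± 219, a rise of 0.89 on the log2 scale (limma, adjusted p = 7.38e-08). HAMP, which encodes hepcidin, the hormone that binds ferroportin, did not reach the minimum value for limma, at 9, 16 and 5 reads on day 3 and 0, 1 and 2 reads on day 5. DESeq2, which tested 76 genes of the wider list against 75 in limma, called it lower (log2 fold change -2.98, adjusted p = 0.0253), on these few reads.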
